A study of Homo sapiens with 9 samples.

Results

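The MAGE (melanoma antigen) family was examined in HT-29 cells, an established human colon cancer cell line, after treatment with the DNA-demethylating nucleoside 5-Aza-deoxycytidine (5-Aza). Every gene symbol beginning with MAGE was taken from the RNA-Seq tables, with the entries of a repeated symbol summed. The rule gave 34 of 23284 symbols, of which 25 were type I (14 MAGEA, 8 MAGEB and 3 MAGEC) and 9 were type II (4 MAGED, 2 MAGEE, MAGEF1, MAGEH1 and MAGEL2). The 9 cultures were HT-29 monolayers given DMSO vehicle alone (0 µM), 5 µM 5-Aza or 10 µM 5-Aza for 5 days, with 3 cultures per dose, and all were grown in the same serum-containing medium. Since all cultures are of the same line, they replicate the treatment of HT-29 and not of colon cancer in general. Levels are FPKM (sequenced fragments per kilobase of gene model, scaled to the library) and are used as relative values, since their library sums are far above what plain FPKM give.

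Type I MAGE genes are clustered on the X chromosome. They are normally transcribed in germ cells, are kept silent in most adult tissues with methylated promoters, and reappear in many tumors, which is why their products are known as cancer-testis antigens. Type II genes are transcribed in many tissues, including brain. Proteins of both types carry the MAGE homology domain, through which many of them bind a RING-type E3 ubiquitin ligase and direct it to particular substrates. 5-Aza is incorporated into replicating DNA and traps DNA methyltransferases there, so that methylation is lost as the cells divide.

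All 24 type I symbols with an annotated position lay on chromosome X, as did 7 of the 9 type II genes (MAGEF1 lies on chromosome 3 and MAGEL2 on chromosome 15). RefSeq promoter windows (GRCh38.p14, 250 bases before to 50 bases after an annotated start) were matched for 21 type I genes with 29 windows and 8 type II genes with 11 windows. The windows of 4 members are shown here because they span the patterns described in the results: MAGEA4 and MAGEB2 were at 0 in the control cultures, MAGEA3 was transcribed there already, and MAGEF1 is a type II gene. Capitals mark each CpG, the dinucleotide that DNA methyltransferases methylate.
MAGEA4, first of 5 annotated starts, chrX:151912224-151912523, plus strand, 10 CpG: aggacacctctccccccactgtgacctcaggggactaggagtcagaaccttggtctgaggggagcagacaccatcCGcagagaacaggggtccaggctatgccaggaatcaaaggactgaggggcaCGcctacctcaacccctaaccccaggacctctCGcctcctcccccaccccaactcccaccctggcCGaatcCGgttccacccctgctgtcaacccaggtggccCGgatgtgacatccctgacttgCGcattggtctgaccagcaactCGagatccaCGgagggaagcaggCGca
MAGEB2, chrX:30215313-30215612, plus strand, 21 CpG: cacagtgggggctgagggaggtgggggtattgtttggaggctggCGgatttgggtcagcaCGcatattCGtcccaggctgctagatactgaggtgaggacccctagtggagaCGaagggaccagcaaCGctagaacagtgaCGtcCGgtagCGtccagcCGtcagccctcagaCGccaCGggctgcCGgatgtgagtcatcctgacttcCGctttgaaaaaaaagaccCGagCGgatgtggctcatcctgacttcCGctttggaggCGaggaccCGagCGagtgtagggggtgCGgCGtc
MAGEA3, chrX:152698544-152698843, plus strand, 19 CpG: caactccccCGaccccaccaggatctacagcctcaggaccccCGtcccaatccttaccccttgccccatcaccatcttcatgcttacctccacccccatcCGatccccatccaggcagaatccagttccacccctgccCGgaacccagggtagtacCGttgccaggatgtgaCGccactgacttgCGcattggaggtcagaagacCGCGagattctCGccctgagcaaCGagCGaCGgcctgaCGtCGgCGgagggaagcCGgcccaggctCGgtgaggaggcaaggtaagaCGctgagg
MAGEF1, chr3:184712015-184712314, minus strand, 21 CpG: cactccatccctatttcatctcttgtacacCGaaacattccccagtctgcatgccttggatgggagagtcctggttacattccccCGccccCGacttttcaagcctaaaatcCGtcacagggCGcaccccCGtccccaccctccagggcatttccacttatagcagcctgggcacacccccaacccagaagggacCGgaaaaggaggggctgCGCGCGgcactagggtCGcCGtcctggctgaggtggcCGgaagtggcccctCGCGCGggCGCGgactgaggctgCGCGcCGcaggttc

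A stretch of promoter sequence recurred among the type I genes and was absent from the type II windows. The letters GGATGTG, searched on both strands, were present in 21 of 29 type I windows (15 of 21 genes), in 0 of 11 type II windows and in 4.29% of all 35116 RefSeq windows of this length. They were chosen after the sequences had been seen. Windows of a gene with several starts can overlap, and copies of a gene share sequence, so that the windows are not independent. The stretches below are on the gene's strand (GRCh38.p14), with the motif in capitals, and show how far the likeness runs beyond it.
MAGEA4, first start, chrX:151912451-151912482: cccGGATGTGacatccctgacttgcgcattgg
MAGEA3, chrX:152698705-152698736: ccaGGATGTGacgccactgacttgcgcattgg
MAGEA12, chrX:152733742-152733773: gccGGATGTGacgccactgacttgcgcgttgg
MAGEA9, chrX:149781909-149781940: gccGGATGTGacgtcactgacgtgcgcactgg
MAGEA8, chrX:149881168-149881199: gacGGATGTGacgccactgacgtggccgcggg
MAGEA11, chrX:149712044-149712075: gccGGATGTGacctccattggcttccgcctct
MAGEC2, chrX:142205268-142205299: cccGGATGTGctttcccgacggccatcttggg
MAGEB2, first of 2 matches, chrX:30215497-30215528: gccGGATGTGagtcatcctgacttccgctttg
MAGEB1, second of 2 annotated starts, chrX:30247132-30247163: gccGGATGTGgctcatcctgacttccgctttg

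On the gene's strand the motif began between 6 and 117 bases before the annotated start. The run TGACTTGCGC, which follows the motif after 7 further bases in the MAGEA4 window and was searched in the same way, was in the windows of 6 type I genes (MAGEA2, MAGEA2B, MAGEA3, MAGEA4, MAGEA6 and MAGEA12), in 12 of 29 type I windows and in 21 of all 35116 windows. Being taken from the first MAGEA4 window, the run was bound to be found there. The 5 annotated starts of MAGEA4 gave 5 of the 12 type I windows, and these 12 are among the 21. A match is only a run of letters and was not tested as a binding site.

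The number of CpG did not separate the types. Type I windows held 1 to 21 CpG with a median of 13, type II windows 9 to 26 with a median of 12, and all windows had a median of 14. The Sp1-type GC box GGGCGG was found on either strand in 13 of 29 type I windows (44.8%), 9 of 11 type II windows (81.8%) and 44.95% of all windows. The Ets-type form CCGGAA was found in 4 of 29 type I windows, 3 of 11 type II windows and 17.2% of all. This count does not cover every Ets-type form. The motif GGATGTG, often preceded by CC, holds GGAT in place of GGAA and was not counted here. In the plot of CpG number against control level, genes at 0 in the control lie on the lower edge by construction. The type I windows on that edge held 1 to 21 CpG. The type II genes MAGED4, MAGED4B, MAGEE1, MAGEE2 and MAGEL2, also at 0, shared that edge.

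**Figure D1:**
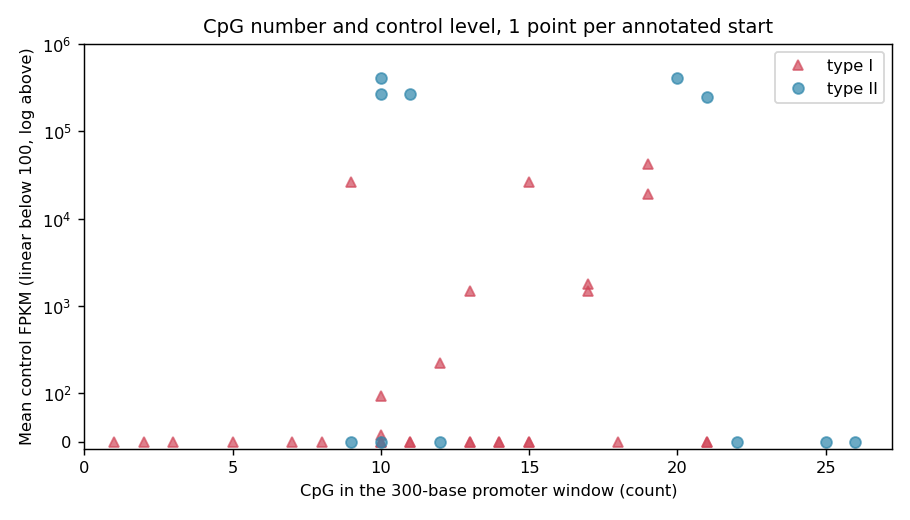
Number of CpG in each 300-base promoter window (x axis, count) against the mean FPKM of that gene in the 3 control cultures (y axis, linear below 100 and logarithmic above), with a triangle per type I and a circle per type II annotated start. Genes listed at 0 range from 1 to 26 CpG, and the MAGEA3 and MAGEA6 windows, which were identical at all 300 bases, stand at 19 CpG with control means of 41720 and 19280.

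In the control cultures a small group of MAGEA genes was transcribed and most of the other type I members were under 1 FPKM. A type I member was read as detected when it reached 1 FPKM in all 3 cultures of a dose, which held for 6 of 25 at 0 µM (MAGEA3, MAGEA12, MAGEA6, MAGEA5, MAGEA2B and MAGEA10), 20 of 25 at 5 µM and 10 of 25 at 10 µM. For type II the number was 3 of 9 at every dose (MAGED1, MAGED2 and MAGEF1). A value of 1 FPKM is less than 1 fragment. MAGEA9B passed on an estimated 0.14 to 0.16 fragments per culture at 5 µM and on 0.10 in 10 µM replicates 1 and 3. MAGEA2B passed on 0.013 in 5 µM replicate 3. Depth differed between libraries as well, so these counts depend on it, and no share over all genes stands beside them. Across the libraries 7 members never reached 1 FPKM, namely MAGEB3, MAGEB4 and MAGEB18 of type I and MAGED4, MAGED4B, MAGEE2 and MAGEL2 of type II. Fewer transcribing cells and less RNA per cell cannot be told apart in these bulk samples.

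In some genes low FPKM values are whole multiples of what 1 sequenced fragment is worth, and from these steps the fragments behind a value were estimated. Other genes, such as MAGEA9B and MAGEA2B, had low values that came to parts of a fragment. For 12 microRNA genes of 110 nt, 100% of 46 values above 0 were whole multiples within 0.01, and 11 MAGE members stepped in whole fragments within 0.03. The size of the step gave a library term, which is the relative depth times any scaling by the authors. Against control replicate 1, where it was lowest and a fragment counted for most FPKM, it was 1.51 and 2.14 in the other control cultures, 2.29 to 2.57 at 5 µM and 1.27 to 2.01 at 10 µM. It was thus highest at 5 µM, where a fragment counted for least. A level of 0 in a control library was read as under 3 fragments, so that a fold against it is a lower bound. Such bounds and intervals cover counting error only.

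At 5 µM vs. 0 µM, 14 of 25 type I members were called higher and 1 was called lower, while 0 of 9 type II members were called in either direction. Calls came from limma on log2(FPKM + 1) and needed both a Benjamini-Hochberg adjusted p no higher than 0.05 and more than a 2-fold difference, with 21 type I and 5 type II members past the filter on low values. For a member at 0 in 1 group the added 1 sets the size of the difference. The 2-fold limit is then met almost at any level, and the lower bound given for a called member can be under 2-fold. Of all 20051 genes tested, 14.1% were called higher and 2.17% lower, and of the 654 other tested genes on chromosome X 18.0% were called higher. Among type I symbols 15 were under 1 FPKM in every control culture, and of the 11 of these that passed the filter through their 5 µM values 10 were called higher. The same rule called 37.2% of all 2391 tested genes that were under 1 FPKM in every control culture. Of the type I members 17 had every 5 µM culture above every control culture, which held for 29.4% of all genes tested.

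The label of the cells was checked with 12 colon epithelial markers and 9 markers of other cell types. All epithelial markers were detected at 0 µM, with a summed level of 90270000 to 108600000 FPKM, which was 37690000 to 42350000 at 5 µM and 29620000 to 52080000 at 10 µM. At 5 µM vs. 0 µM 4 of them were called lower (KRT8, KRT18, KRT19 and GPA33) and 2 higher (CDX1 and CEACAM5), beside 2.17% and 14.1% of all genes. The GPA33 call was lost without 5 µM replicate 3 (limma adjusted p = 0.0552). The markers of other cells summed to 135700 to 142000 FPKM in the control, 705100 to 749900 at 5 µM and 226400 to 373800 at 10 µM, and 6 of 9 were called higher at 5 µM (CD3E, CD68, PECAM1, VWF, COL1A1 and COL1A2). The share called higher over all genes was 14.1%. The COL1A2 call was lost without control replicate 1 or 2 or any 5 µM replicate (limma adjusted p from 0.0503 to 0.0742). The PECAM1 call was lost without control replicate 3 or any 5 µM replicate (limma adjusted p from 0.0509 to 0.0941). CD3E was at 0 in every control culture, with an estimated 8.5 fragments in all at 5 µM, and COL1A2 was at 0 in every 10 µM culture. At 10 µM vs. 5 µM CEACAM5, CD68, PECAM1 and COL1A2 were called lower and 0 markers higher, beside 4.82% and 0.129% of all genes. At 10 µM vs. 0 µM KRT19, KRT20, CDX2 and GPA33 were called lower and COL1A1 higher, beside 3.4% and 4.07%. Each of these calls at 10 µM was lost in at least 1 fit with a replicate left out. Most of the sum over other-cell markers was CD68. That gene was at 121931 to 128554 FPKM in the control, 653377 to 690427 at 5 µM and 191711 to 344519 at 10 µM. The sum was highest at 5 µM, as for type I, and its part in the MAGE results was not tested.

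**Figure D2:**
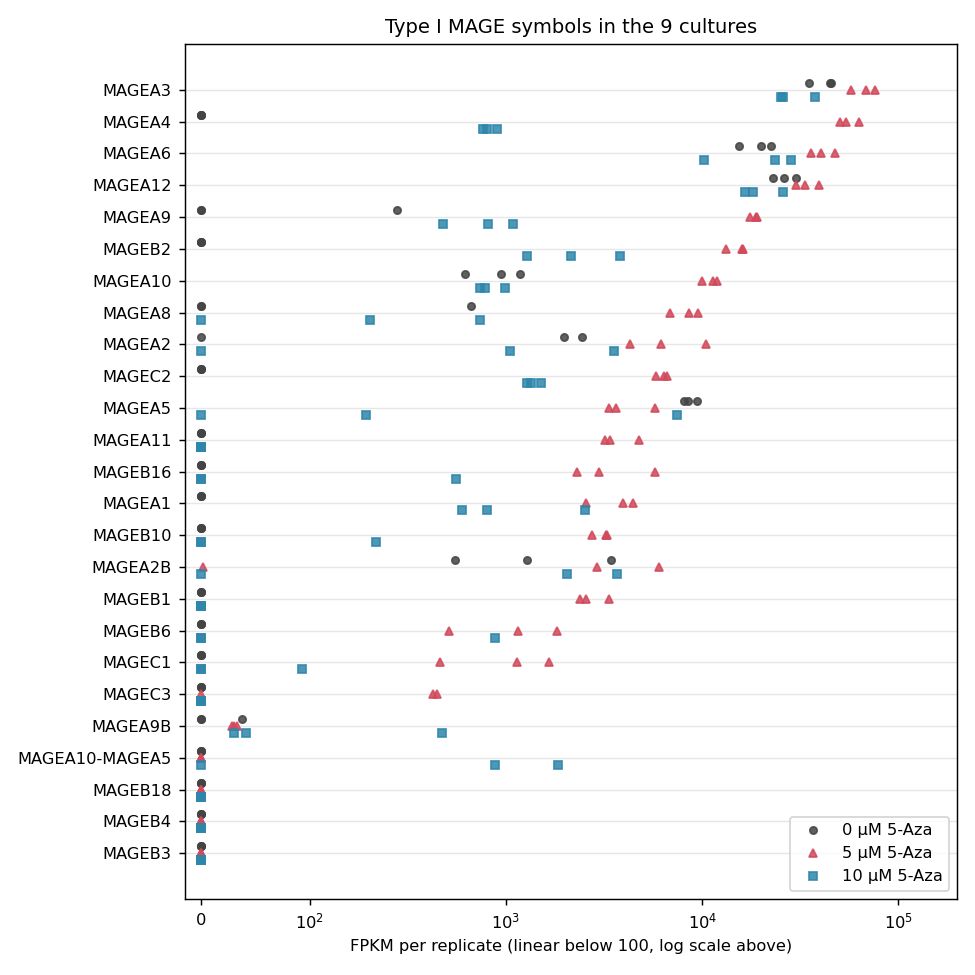
FPKM of the 25 type I symbols (rows, ordered by their mean at 5 µM) in each of the 9 cultures (x axis, linear below 100 and logarithmic above), with circles for 0 µM, triangles for 5 µM and squares for 10 µM. For MAGEA4, MAGEB2 and MAGEC2 the control circles lie at 0, the triangles are farthest right and the squares lie between them, whereas for MAGEA12 and MAGEA3 all 9 cultures lie above those of MAGEA10.

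MAGEA4, a cancer-testis antigen (chrX:151080967-151093643, hg19), went from no detected fragments at 0 µM to a level near that of MAGEA3 at 5 µM. Its FPKM was 0 in all 3 control cultures, 50122, 62889 and 53865 at 5 µM, then 800, 760 and 897 at 10 µM. The 3 doses did not overlap, and the 10 µM values rested on 8 fragments in all. MAGEA4 rose at least 51.3-fold at 5 µM vs. 0 µM (limma adjusted p = 0.000108), which was the largest bound among the members. The comparison of 10 µM vs. 5 µM gave a level 67.9-fold lower (log2 difference -6.08 ± 0.26 SE, limma adjusted p = 0.000395).

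MAGEB2 and MAGEC2 followed the same order of doses. MAGEB2 (chrX:30233680-30238206, hg19) was at 0 in the control cultures, at 13143, 15977 and 16098 FPKM at 5 µM (58, 67 and 76 fragments) and at 2144, 3800 and 1281 at 10 µM (5, 14 and 4 fragments). MAGEC2 (chrX:141290128-141293076, hg19), whose product binds the E3 ligase TRIM28, was at 0 in the control, at 6585, 6368 and 5823 FPKM at 5 µM (37, 34 and 35 fragments) and at 1347, 1279 and 1510 at 10 µM (4, 6 and 6 fragments). In both genes every 10 µM culture lay above every control and below every 5 µM culture. MAGEB2 rose at least 13.0-fold at 5 µM (limma adjusted p = 0.000164) and was 6.26-fold lower at 10 µM vs. 5 µM (limma adjusted p = 0.0136). MAGEC2 rose at least 6.86-fold (limma adjusted p = 0.000239) and was 4.54-fold lower at 10 µM vs. 5 µM (limma adjusted p = 0.0131).

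MAGEA1, the founding member of the family, was at 0 in the control cultures, at 2543, 4460 and 3961 FPKM at 5 µM (12, 20 and 20 fragments) and at 802, 2538 and 599 at 10 µM (2, 10 and 2 fragments). The highest 10 µM culture reached the lowest 5 µM culture to within 5 FPKM. The rise at 5 µM was at least 3.37-fold (limma adjusted p = 0.00033), and the difference of 10 µM vs. 5 µM, 2.78-fold lower, did not pass (limma adjusted p = 0.158).

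Another set appeared at 5 µM and was at or near 0 again at 10 µM. MAGEA11, whose product is a coregulator of the androgen receptor, was at 0 in all control and all 10 µM cultures and at 4742, 3194 and 3369 FPKM at 5 µM (25, 16 and 19 fragments). MAGEB1 behaved alike, with 2544, 3347 and 2378 FPKM at 5 µM (12, 15 and 12 fragments) and 0 in the other 6 cultures. Their rises at 5 µM were at least 3.88-fold and at least 2.54-fold, and at 10 µM vs. 5 µM they were at least 4.41-fold and at least 2.89-fold lower (limma adjusted p = 0.00345 and 0.00381). The annotated spans of MAGEB1 and MAGEB4 overlap, and MAGEB4 was listed at 0 throughout.

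MAGEB10, MAGEB16, MAGEB6 and MAGEC1 were likewise at 0 in the control and rose at 5 µM. MAGEB10 stood at 15, 17 and 19 fragments at 5 µM and at 0, 1 and 0 at 10 µM, and MAGEB16 at 15, 11 and 31 and then at 0, 0 and 2. MAGEC1 stood at 6, 14 and 23 fragments at 5 µM and at 0, 1 and 0 at 10 µM, and MAGEB6 at 10, 6 and 3 and then at 0, 4 and 0. Their rises at 5 µM were at least 3.29-fold for MAGEB10, 3.61-fold for MAGEB16, 2.75-fold for MAGEC1 and 1.24-fold for MAGEB6 (limma adjusted p from 0.000336 to 0.000922). None of the 4 passed at 10 µM vs. 5 µM (limma adjusted p from 0.0549 to 0.176), and in MAGEB6 the 2 doses overlapped. These misses depended on the setting. With a pseudocount of 1000 MAGEB10 and MAGEB16 were called lower (limma adjusted p = 0.00138 and 0.0118). With all 9 samples in the fit MAGEB10 and MAGEC1 were called lower (limma adjusted p = 0.0306 and 0.0379). MAGEB6 was called in neither. MAGEC3 had 2, 2 and 0 fragments at 5 µM and none elsewhere.

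**Figure D3:**
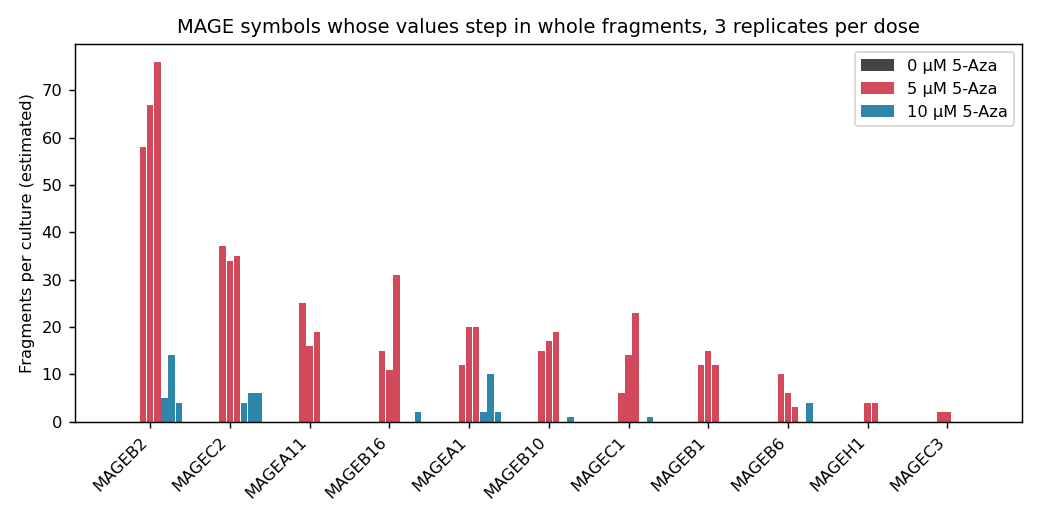
Estimated fragments per culture (y axis, linear from 0) for the 11 MAGE symbols whose values step in whole fragments, with 3 bars per dose in replicate order. No control culture has a bar, the 5 µM bars reach 76 fragments in MAGEB2, and the 10 µM bars reach at most 14.

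MAGEA8, MAGEA9 and MAGEA10 had traces in the control cultures. MAGEA9 was at 0, 279 and 0 FPKM in the control, at 19058, 17584 and 18746 at 5 µM and at 1088, 477 and 813 at 10 µM. It rose at 5 µM (limma adjusted p = 0.00871) and was 23.3-fold lower at 10 µM vs. 5 µM (limma adjusted p = 0.00345). MAGEA8 was at 0, 0 and 661 FPKM, then at 6849, 8553 and 9570, then at 741, 203 and 0, and its rise at 5 µM (limma adjusted p = 0.025) was lost without control replicate 1 or 2 or without any of the 5 µM cultures (adjusted p from 0.0564 to 0.0891). Every 10 µM culture of MAGEA8 was below every 5 µM culture, but the difference did not pass (limma adjusted p = 0.112). With a pseudocount of 1000 it did (limma adjusted p = 0.00139). No fold is given for MAGEA9 or MAGEA8 against the control, where each had fewer than 3 fragments in all.

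MAGEA10 (chrX:151301782-151307050, hg19) was low in every control culture, at 938, 621 and 1171 FPKM. At 5 µM it stood at 11400, 9981 and 11914 FPKM and at 10 µM at 984, 778 and 735. All 5 µM cultures lay far above the other 6, which overlapped. The rise at 5 µM was 12.2-fold (log2 difference 3.65 ± 0.35 SE, limma adjusted p = 0.000679), with 14 fragments behind the control level, and the level at 10 µM was 13.3-fold lower than at 5 µM (limma adjusted p = 0.00379). The symbol MAGEA10-MAGEA5 names a read-through of MAGEA10 into MAGEA5 and shares sequence with both, so the values of all 3 are uncertain. It was under 1 FPKM except in 10 µM replicates 2 and 3, at 1832 and 877.

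Most of the MAGEA genes transcribed in the control lie side by side, with MAGEA5 and MAGEA10 outside the group. MAGEA6, MAGEA2B, MAGEA12, MAGEA2 and MAGEA3 occupy 71.0 kb of chromosome X (151867214 to 151938240, hg19), a segment that carries the opposite orientation in the GRCh38.p14 windows of MAGEA3 and MAGEA6. MAGEA3, whose product binds TRIM28 together with its near-copy MAGEA6, was at 45335, 44842 and 34969 FPKM in the control, at 57422, 68321 and 75860 at 5 µM and at 25148, 37461 and 25802 at 10 µM. MAGEA6 was at 15319, 22517 and 19990, then at 40105, 47503 and 35852, then at 10230, 28352 and 23614. In both genes the 5 µM cultures lay above all the others, and the control and 10 µM cultures overlapped.

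MAGEA6 rose 2.14-fold at 5 µM vs. 0 µM (log2 difference 1.10 ± 0.19 SE, limma adjusted p = 0.00518), a call that was lost without control replicate 1 (0.95) or 5 µM replicate 2 (0.99), where the difference came under the 2-fold limit. MAGEA3 was 1.61-fold higher (0.69 ± 0.15 SE, limma adjusted p = 0.0147) and was not called for its size. MAGEA12 had 29955, 26146 and 22889 FPKM in the control, 33426, 39315 and 30168 at 5 µM and 16540, 25950 and 18132 at 10 µM. Its 5 µM level was 1.303-fold above the control (limma adjusted p = 0.102). MAGEA3 at 10 µM vs. 5 µM was 2.28-fold lower and was called (-1.21 ± 0.21 SE, limma adjusted p = 0.0198), whereas MAGEA6 and MAGEA12 were 1.99-fold and 1.70-fold lower and were not (limma adjusted p = 0.139 and 0.097).

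Some of these genes cannot be told apart by their reads. The annotated transcripts of MAGEA2 and MAGEA2B were identical over 1886 aligned bases, those of MAGEA9 and MAGEA9B over 1805, and those of MAGEA3 and MAGEA6 were 98.5% identical over 1739. MAGEA2 alone was at 6169, 4274 and 10500 FPKM at 5 µM and MAGEA2B at 2903, 6051 and 2.35, an unsteady split of a steady total. Summed, a choice made after seeing the data, the pair stood at 3442, 3715 and 2520 FPKM in the control, 9072, 10325 and 10503 at 5 µM, then 3089, 3535 and 3673 at 10 µM. The sum rose 3.09-fold at 5 µM (1.64 ± 0.25 SE, limma adjusted p = 0.00343) and was 2.90-fold lower at 10 µM vs. 5 µM (limma adjusted p = 0.0204), although neither symbol was called on its own.

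MAGEA3 and MAGEA6 summed were 1.78-fold higher at 5 µM (0.83 ± 0.11 SE, limma adjusted p = 0.00198), under the 2-fold limit, and 2.16-fold lower at 10 µM vs. 5 µM (limma adjusted p = 0.0331). MAGEA9 with MAGEA9B kept both calls (limma adjusted p = 0.0096 and 0.00188), and MAGEA9B alone was at 474 FPKM in 10 µM replicate 2 and at no more than 41.1 elsewhere.

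MAGEA5 was the only type I symbol called lower at 5 µM. The reference annotation lists it as a pseudogene. It was at 9460, 8092 and 8491 FPKM in the control and at 3332, 5748 and 3625 at 5 µM, with no overlap (-1.08 ± 0.28 SE, limma adjusted p = 0.0268). At 10 µM it was at 7443, 194 and under 1 FPKM. The call was kept under 7 of 15 other settings. It was lost without each control replicate in turn and without 5 µM replicate 1 or 3 (log2 difference from -1.12 to -0.92, adjusted p from 0.0508 to 0.0824).

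Summed over the 25 symbols, type I stood at 104449, 106250 and 90691 FPKM in the control, 268784, 311875 and 292890 at 5 µM, then 70398, 108817 and 78522 at 10 µM. The 5 µM cultures lay apart from the rest, and the other doses overlapped. Type II stood at 942957, 905667 and 890271, then at 700320, 822791 and 700984, then at 634540, 853278 and 667774. Type I thus made up 9.25 to 10.5% of all MAGE FPKM in the control, 27.5 to 29.5% at 5 µM and 9.99 to 11.3% at 10 µM.

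**Figure D4:**
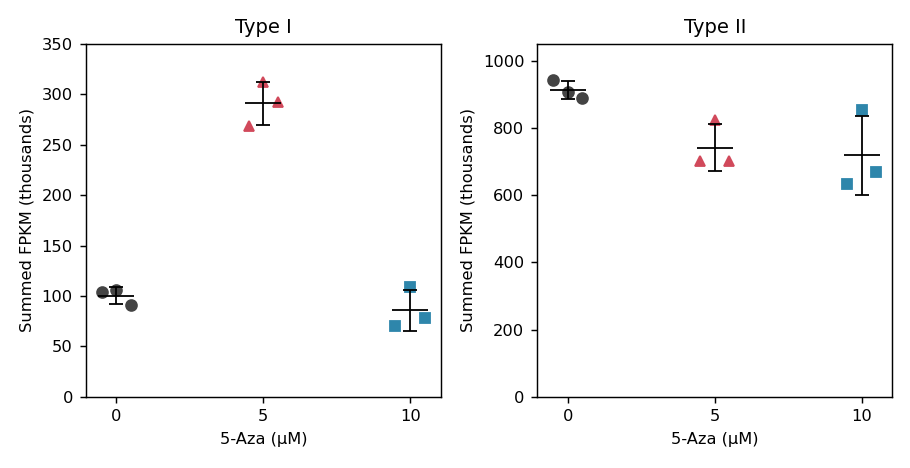
Summed FPKM (y axes, divided by 1000, from 0, with different ranges) of the type I symbols (left) and the type II symbols (right) at each dose of 5-Aza (x axis, µM), with a point per culture and the mean ± SD of 3 cultures. Type I averaged 100460 ± 8511 at 0 µM, 291180 ± 21596 at 5 µM and 85912 ± 20248 at 10 µM, and type II 912960 ± 27091, 741360 ± 70518 and 718530 ± 117870.

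The transcribed type II genes stood well above the type I genes in the control, and none was called at any dose. MAGED1, also known as NRAGE, binds the neurotrophin receptor NGFR and lies at chrX:51546103-51645450 (hg19). It was at 412997, 421218 and 377507 FPKM in the control, 320652, 353089 and 325230 at 5 µM and 273077, 378499 and 297595 at 10 µM. Every 5 µM culture was below every control culture, at 1.21-fold lower (-0.28 ± 0.07 SE, limma adjusted p = 0.0254), which passed on p but not on size. The highest 10 µM culture overlapped the control (-0.36, limma adjusted p = 0.135).

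MAGEF1 (chr3:184428152-184429852, hg19), an intronless gene whose product joins the E3 ligase NSMCE1, was at 249164, 246841 and 238968 FPKM in the control, 149546, 205064 and 152901 at 5 µM and 136826, 198757 and 163207 at 10 µM. No treated culture reached a control culture. It was 1.45-fold lower at 5 µM (-0.55 ± 0.13 SE, limma adjusted p = 0.0176) and 1.47-fold lower at 10 µM (-0.58 ± 0.16 SE, limma adjusted p = 0.0479), under the 2-fold limit both times. Without a limit on size 17.7% of all genes were called lower at 5 µM and 9.71% at 10 µM vs. 0 µM, so these members are among many.

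MAGED2 (chrX:54834032-54842448, hg19), in which mutations cause an antenatal salt-losing kidney disease, was at 280796, 237608 and 273796 FPKM in the control, 230031, 263570 and 221904 at 5 µM, then 224637, 276022 and 206972 at 10 µM. The doses overlapped, with a difference of -0.15 ± 0.10 SE at 5 µM (limma adjusted p = 0.279). MAGEH1 and MAGEE1 had only traces. MAGEH1 had 0, 4 and 4 fragments at 5 µM (limma adjusted p = 0.116) and MAGEE1 had 1 fragment in 5 µM replicate 1, with none in the other doses. MAGEH1 was called higher when 5 µM replicate 1, the culture at 0, was left out (adjusted p = 0.00278).

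Of the type II members 2 had every 5 µM culture below every control culture, which held for 23.2% of all genes tested. The median log2 difference was -0.15 over the 5 type II members tested and 0.14 over all genes. For type I the median was 9.90 over the 21 tested, a value set by the pseudocount, and 1.74 over 20 members when the 10 at 0 in the control were placed at their bound.

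**Figure D5:**
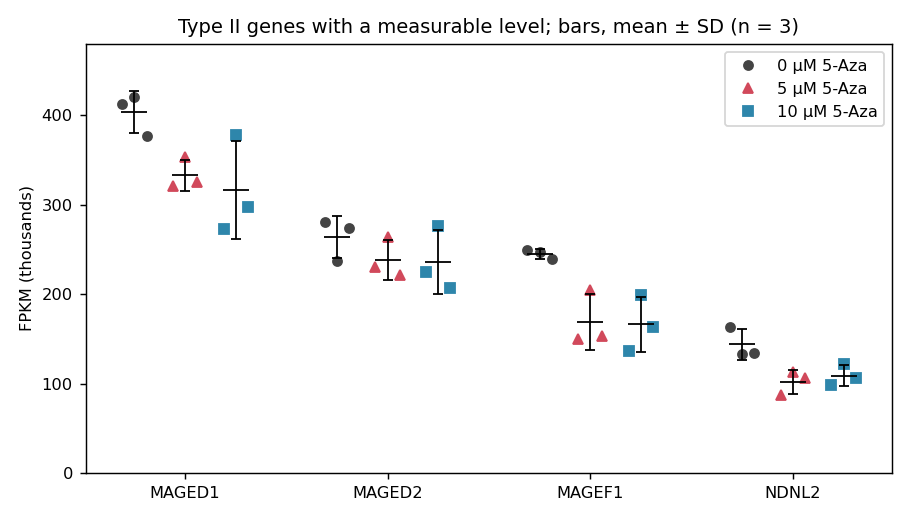
FPKM (y axis, divided by 1000, linear from 0) of MAGED1, MAGED2, MAGEF1 and NDNL2 in each culture, with circles for 0 µM, triangles for 5 µM and squares for 10 µM, and the mean ± SD of 3 cultures. The values run from 87149 FPKM in NDNL2 to 421218 in MAGED1, and in MAGEF1 and NDNL2 the control cultures lie above every treated culture.

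Type II members carried under other symbols were examined beside them. NDNL2 (now NSMCE3), the MAGE subunit of the SMC5/6 genome maintenance complex, was at 163516, 132939 and 134747 FPKM in the control, 87149, 113034 and 106513 at 5 µM, then 98144, 121342 and 106567 at 10 µM. The control cultures lay above all treated cultures, at 1.41-fold over 5 µM (-0.49 ± 0.13 SE, limma adjusted p = 0.0275), and the gene was not called for its size. The difference of 10 µM vs. 0 µM, -0.40 ± 0.14 SE, did not pass (limma adjusted p = 0.0952). TRO (trophinin) was between 228 and 566 FPKM at 0 and 5 µM and at 0, 363 and 0 at 10 µM, and NDN (necdin) had 2 fragments in 5 µM replicate 3 and none elsewhere.

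Between 5 µM and 10 µM, 8 of 25 type I members were called lower (MAGEA3, MAGEA4, MAGEA9, MAGEA10, MAGEA11, MAGEB1, MAGEB2 and MAGEC2) and 0 higher, with 22 tested, and 0 of 9 type II members were called. Of all 20085 genes tested 4.82% were called lower and 0.129% higher, and of the other genes of chromosome X 9.02% were called lower. Every 10 µM culture was below every 5 µM culture in 16 type I members and in 25.3% of all genes. The count of 8 fell to 5 without any of the 5 µM replicates, when MAGEA3, MAGEB2 and MAGEC2 were lost, and became 13 without 10 µM replicate 2. At unadjusted p under 0.05 with the same fold limit, 82 of all genes were higher and 2122 lower.

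The 10 µM libraries did not scale alike. Median-of-ratios size factors were 0.828 and 0.849 in 10 µM replicates 1 and 3, 1.05 in replicate 2 and 0.994 to 1.09 in the libraries of the other doses. Over genes above 0 in all 9 cultures the median log2 difference was -0.22 at 10 µM vs. 5 µM, -0.23 at 10 µM vs. 0 µM and -0.04 at 5 µM vs. 0 µM. The type I median at 10 µM vs. 5 µM was -4.90, or -2.16 with members at 0 placed at their bound, beside -0.31 over all genes tested. The differences of MAGED1, MAGED2 and MAGEF1 at 10 µM vs. 5 µM were -0.09, -0.02 and -0.03, and all 3 changed sign, to 0.12, 0.18 and 0.18, under median-of-ratios scaling.

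At 10 µM vs. 0 µM, MAGEA1, MAGEA4, MAGEB2 and MAGEC2 were called higher among the 25 type I members, 0 were called lower, and 0 of 9 type II members were called. This comparison shares its cultures with both others. Of all 18928 genes tested 4.07% were called higher and 3.4% lower. Every 10 µM culture was above every control culture in 5 type I members and in 14.4% of all genes. The bounds were at least 2.07-fold for MAGEB2, 1.51-fold for MAGEC2 and 1.21-fold for MAGEA1 (limma adjusted p = 0.00592, 0.00724 and 0.0098). MAGEA4 passed on p (limma adjusted p = 0.0101), but its 8 fragments over 3 libraries are no more than the level that 0 in the control allows, so no fold is given. The call was lost without 10 µM replicate 3 and with a pseudocount of 1000.

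Proteins that MAGE members are known to bind were followed as a list. NGFR, the receptor bound by MAGED1, rose 29.6-fold at 5 µM vs. 0 µM, from 475, 630 and 223 FPKM to 13341, 10920 and 15057 (limma adjusted p = 0.0007), and was 4.69-fold lower at 10 µM vs. 5 µM (limma adjusted p = 0.0112, and 0.0604 or 0.0744 without 5 µM replicate 1 or 3). TRIM31, an E3 ligase, fell from 2233910, 2242310 and 2240340 FPKM to 751927, 765853 and 887278 at 5 µM (-1.49 ± 0.08 SE, limma adjusted p = 0.000192). Among the 14 that were not called at 5 µM were TRIM28 at -0.64 (limma adjusted p = 0.00168) and PJA1, the ligase bound by MAGED1, at 0.53 (limma adjusted p = 0.00642). Of the 17 partners 0 were called higher and 1 lower (NGFR) at 10 µM vs. 5 µM, beside 0.129% and 4.82% of all genes. At 10 µM vs. 0 µM 1 was higher (NGFR) and 1 lower (TRIM31), beside 4.07% and 3.4% of all genes. In that comparison the NGFR call was lost without each single replicate (adjusted p from 0.0544 to 0.097).

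Among 15 regulators of DNA methylation and of MAGE promoters, 3 were called higher at 5 µM, beside 14.1% of all genes: DNMT3B, a de novo methyltransferase (2.44-fold), UHRF1, which brings DNMT1 to newly replicated DNA (2.16-fold), and CTCFL, also called BORIS, a germline paralog of CTCF. The DNMT3B call (limma adjusted p = 0.0221) was lost without control replicate 2 or any of the 5 µM replicates (adjusted p from 0.0558 to 0.079). CTCFL was at 0 in the control and at 10 µM and had 22 fragments in all at 5 µM, at least 1.41-fold higher (limma adjusted p = 0.000963) and at least 1.60-fold lower again at 10 µM (limma adjusted p = 0.0095, and 0.061 without 5 µM replicate 3). DNMT1 was at 0.17 on the log2 scale at 5 µM vs. 0 µM (limma adjusted p = 0.146), SP1 at -0.63 (limma adjusted p = 0.000669), and neither was called. ETS1 was called lower at 10 µM vs. 5 µM (-1.35, limma adjusted p = 0.0472), a call lost without each replicate but 10 µM replicate 2 (adjusted p from 0.0758 to 0.229). UHRF1 was called higher (1.04) and ETS2 lower (-1.05) at 10 µM vs. 0 µM, and each call was lost without most of the single replicates. For ETS2 the limma adjusted p was then 0.0534 to 0.0729, without control replicate 1 or 2 or 10 µM replicate 1 or 3. For UHRF1 it was 0.0603 to 0.0831 without any control replicate or 10 µM replicate 3, and without 10 µM replicate 2 the difference was under 2-fold.

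Genes beside the type I members were counted as well. Of 15 annotated genes within 100 kb, 14 were tested at 5 µM vs. 0 µM, 2 were called higher (DCAF8L2 near MAGEB10 and NR0B1 near MAGEB1) and 0 lower, beside 14.1% called higher among all genes. GABRE, 28.0 kb from MAGEA4, was at 384428, 374346 and 440734 FPKM in the control and 430211, 380956 and 380068 at 5 µM, with no difference detected (-0.01 ± 0.09 SE, limma adjusted p = 0.948). CSAG1, directly beside MAGEA12, was at 18256, 35140 and 14294 and then at 32256, 35691 and 29708 (limma adjusted p = 0.17). CSAG2 and CSAG3, beside MAGEA2 and MAGEA2B, were not called in any comparison. Their values were split unsteadily between the 2 symbols, with SE of 4.10 and 4.43 at 5 µM vs. 0 µM, so these tests could show little. Summed, they averaged 2261 ± 1211 SD, 4862 ± 2745 and 3161 ± 1837 FPKM at 0, 5 and 10 µM, and the sum was not tested.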

How the data were processed

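RNA was extracted from 9 HT-29 cultures and sequenced as paired-end Illumina libraries. The authors filtered the reads, used TopHat for alignment to hg19 and Cufflinks for FPKM per gene, and deposited the FPKM of each library separately. The gene annotation they used is not given in the sources used here. The library sums are far above what plain FPKM give, so FPKM were used as relative values, and the libraries in which a fragment counts for most FPKM, above all control replicate 1, set the highest floors.

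Groups were taken from the dose in the labels. The 24934 entries were summed to 23284 symbols. Each pair of doses was compared over its 6 libraries with limma 3.58.1 in R 4.3.3 (lmFit, eBayes with trend) on log2(FPKM + 1), over symbols reaching at least 10 FPKM in either group, with Benjamini-Hochberg adjustment over all tested. Calls needed an adjusted p no higher than 0.05 and more than a 2-fold difference. On simulated data 100% of 200 changed genes were recovered in each comparison, at 5, 2 and 7 false calls. The changed genes were all drawn from well transcribed genes and given a log2 difference of 2 in either direction. The noise followed an assumed curve and held no fragment steps. Recovery of members at 0, at a few fragments or with differences near the 2-fold limit was thus not tested. Folds are ratios of mean FPKM, and a group at 0 was set to 3 fragments per library. Every MAGE symbol was described, those called or of type II in full, with lists of partners, regulators, neighbours and markers, of which 1 listed partner is not reported here. The members and lists were chosen with earlier results of these data known. Positions came from the GENCODE annotation on GRCh37 and promoters from RefSeq (GRCh38.p14). Tables were made with pandas 2.3.3 in Python 3.11.15. Alternatives were other pseudocounts, no filter, a fit of all 9 libraries, the replicate block, median-of-ratios scaling, the largest entry of repeated symbols, no fold threshold, summed copies and leaving out each replicate.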

Additional observations from a re-analysis of the deposited data

How the results depend on the processing

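The count of type I members called higher at 5 µM vs. 0 µM was 14, between 14 and 15 under the other settings and between 12 and 14 with 1 replicate left out. Type I called lower was 1, and 0 with a pseudocount of 1000, with all 9 samples in the fit and with the replicate block, or 0 to 1 with a replicate left out. Type II called higher was 0 to 1 and type II called lower was 2 without a fold threshold, when 4263 of all genes were higher and 3553 lower. Over all genes 2388 to 3027 were higher and 406 to 507 lower with a replicate left out. At 10 µM vs. 5 µM type I called lower was between 7 and 11 under the other settings and 5 to 13 with a replicate left out, type I called higher 0 to 1 and type II called lower 0 to 1. All genes called higher were 55 with median-of-ratios scaling, 64 without a fold threshold and 12 to 64 with a replicate left out, and all genes called lower 176 to 1873. At 10 µM vs. 0 µM type I called higher was 3 to 5 under the other settings and with a replicate left out. All genes called higher were 1174 with all 9 samples in the fit and 337 to 819 with a replicate left out, and those called lower 284 with scaling, 1837 without a fold threshold and 165 to 1500 with a replicate left out. Type II called lower was 1 (MAGEF1) without a fold threshold. The higher share of all calls at 10 µM vs. 0 µM was 54.5% as deposited and 79.8% with scaling. Where a fold threshold was dropped or libraries left out, the setting itself changes the count, and for the rest the cause was not tested.

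Directions turned for small differences. At 10 µM vs. 5 µM scaling gave 0.12 for MAGED1, 0.18 for MAGED2 and 0.18 for MAGEF1, and leaving out a replicate gave -0.22 to 0.013, -0.14 to 0.066 and -0.16 to 0.12, with -0.019 to 0.17 for NDNL2. At 10 µM vs. 0 µM MAGEA6 was at 0.0034 with a pseudocount of 1000, at 0.24 with scaling and at -0.29 to 0.44 with a replicate left out. MAGEA10 was at 0.15 with scaling and at -0.34 to 0.11 with a replicate left out, and MAGED2 was at 0.072 with scaling. Of the other values of single genes 1345 kept their direction and side of the threshold, 124 lost and 21 gained a call. MAGEA9 and MAGEC2 lost their call at 10 µM vs. 5 µM with all 9 samples in the fit.

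Replicate numbers did not pair the cultures. Deviations of same-numbered cultures from their group means correlated between -0.178 and 0.127 over 9 pairs, and those of differently numbered cultures between -0.274 and 0.205 over 18. With the replicate block 11 of all genes were called higher and 407 lower at 10 µM vs. 5 µM, and calls lost were MAGEA5 and DNMT3B (adjusted p = 0.0605) at 5 µM vs. 0 µM, MAGEC2, NGFR, CTCFL, ETS1, CEACAM5, COL1A2 and PECAM1 at 10 µM vs. 5 µM, and NGFR, KRT19 and KRT20 at 10 µM vs. 0 µM. Depth limits the low members: 3 fragments per library is the floor for a level of 0.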
